A study of Arabidopsis thaliana with 18 samples.

Results

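The first hour without phosphate was followed in root apices of Arabidopsis thaliana of the ecotype Landsberg erecta (Ler). The 3 Ler libraries taken at 1 h were compared with the 3 taken at 0 h, as named in the labels, so 6 of the series' 18 libraries hold the comparison. All seedlings were wild type and carried no transgene. They grew for 7 days on nylon mesh on a tenth-strength medium with 500 µM phosphate, under 16 h of light at 24 °C and 8 h of darkness at 21 °C. For the 1 h group the mesh was moved to the same medium without phosphate, and apices of about 0.5 cm were frozen. For the 0 h group the protocol of the other samples describes a move to fresh medium with phosphate, while the treatment field of the 0 h samples states that none was given. The other 12 libraries are Ler at 2 h and Col (Columbia) at 0, 1 and 2 h. They entered the model as a shared estimate of spread, and Col at 0 and 1 h also served to test whether a change in Ler differed from that in Col.

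Phosphate is taken up at the root surface, and the root tip is where a plant first senses its shortage. Low phosphate is answered locally and systemically. The local response at the tip, which runs through the LPR and PDR2 proteins, iron and the STOP1 factor, slows root growth. The systemic response, driven by PHR1 and held back by SPX proteins, induces transporters, phosphatases and the replacement of phospholipids. Moving a seedling also touches, bends and cools it for a moment, and jasmonate, calcium and cold-response genes are well known to react to such handling. No Ler libraries kept on phosphate for 1 h are among those analysed here, and clock times of harvest are not stated. Phosphate removal, transfer and time of day therefore cannot be told apart in any value below.

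Library totals in the 6 Ler libraries ran from 24467263 to 28031291 counts. Values are given as CPM, a count divided by its library size, scaled by TMM and set to a common size of 1000000 counts, always in the order of replicates 1, 2 and 3. A feature is said to have risen or fallen, or to be called, where edgeR's quasi-likelihood test gave a Benjamini-Hochberg adjusted p below 0.05. Changes are log2 values of 1 h minus 0 h with their standard error (SE), from the model fitted without the replicate number unless the block is named. Up to 4 called members of each list were chosen by size of change, and other members were named with their values known. Markers fixed for the tip were present in every Ler library. The summed level of 4 root cap genes, none of them called, was 65.6 to 77.2 CPM at 0 h and 60.8 to 80.2 CPM at 1 h, and that of 8 meristem genes was 193.4 to 203.5 and 224.0 to 255.7 CPM. In bulk tissue, fewer cells of a type and less RNA per cell cannot be told apart.

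Libraries with the same replicate number deviated together across the times. The morning clock gene LHY (AT1G01060) read 36.9, 194 and 39.5 CPM at 0 h and 26.0, 203 and 31.2 CPM at 1 h, so that replicate 2 was highest in both groups. CCA1 (AT2G46830), its close partner, read 14.4, 37.3 and 8.20 CPM and then 8.73, 41.7 and 11.5 CPM. The flavonoid enzyme gene F3H (AT3G51240) was likewise highest in replicate 2, at 203, 423 and 148 CPM and 174, 492 and 169.6 CPM. None of the 3 genes was called between the times. Because the numbers pair the libraries, the fit with the replicate number as a block is given wherever it changes a count by more than 1.5 times.

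Of 20599 features tested, 1404 were called in Ler at 1 h, which is 6.82%. Of these, 878 rose (4.26% of the features tested) and 526 fell (2.55%). With the replicate block 2987 were called (14.5%), 1592 up (7.73%) and 1395 down (6.77%), and all 1404 were among them with the same sign. Counts of list members with the block, below, stand beside these shares. Without the block, 3808 features had an unadjusted p under 0.05. Rises were larger than falls. Of the called features 162 rose and 6 fell by at least 8-fold, and the median log2 change was 1.44 among features that rose and -0.95 among those that fell. The median over all features tested was -0.01. Leaving out 1 library at a time gave 755 to 1265 calls, with 783 without 0 h replicate 2, 828 without 0 h replicate 3 and 755 without 1 h replicate 2, and 590 features were called in all 6 of these fits. Beside these counts, 26.0% of the features tested had 0 h and 1 h libraries that did not overlap. A lack of overlap named below is therefore description and adds no support to a call.

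**Figure D1:**
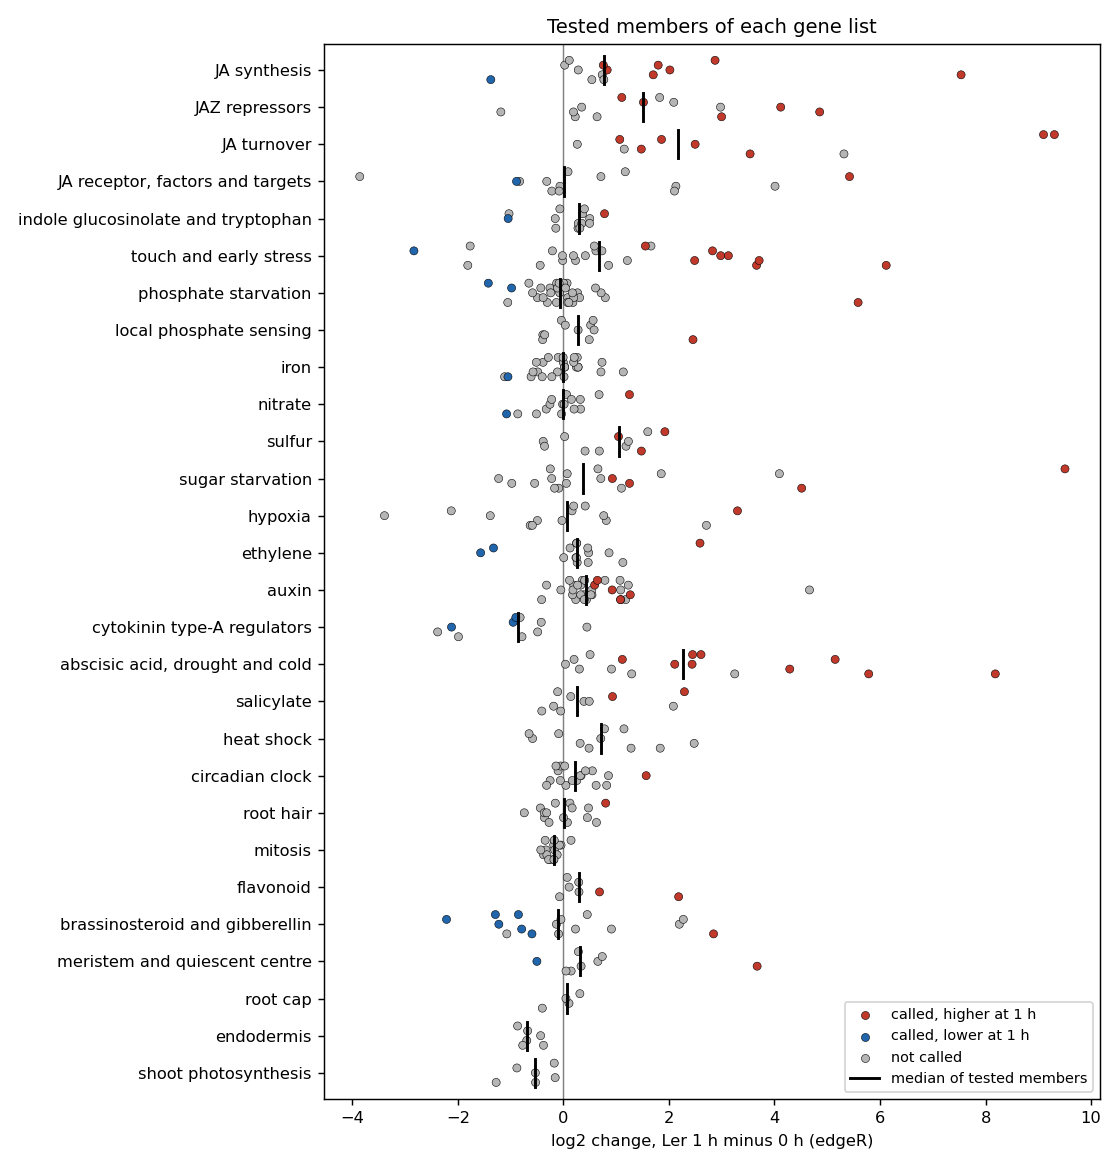
Log2 change in Ler from 0 h to 1 h (horizontal axis) of every tested member of 28 gene lists (rows), one point per gene, with the list median as a black bar. Red points rose, blue points fell and grey points were not called; jasmonate (JA) turnover and the abscisic acid, drought and cold list lie furthest to the right, with medians of 2.18 and 2.28, and the type-A cytokinin regulators lie to the left, with a median of -0.86.

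Jasmonate is a wound and stress hormone made from a plastid fatty acid by lipoxygenases (LOX), allene oxide synthase (AOS) and cyclases (AOC), then OPR3 (AT2G06050) and peroxisomal oxidation. Of 14 synthesis genes tested, 7 rose and 1 fell, beside 4.26% and 2.55% of all features, and the median log2 change was 0.76. LOX6 (AT1G67560), a lipoxygenase active in roots, went from 37.8, 38.5 and 35.8 CPM at 0 h to 160.2, 181 and 113 CPM at 1 h. Its log2 change was 2.02 ± 0.28 (adjusted p = 0.000439), and every 1 h library lay above every 0 h library. AOS (AT5G42650), which makes the unstable epoxide of the pathway, went from 26.8, 23.8 and 20.8 CPM to 68.4, 132 and 47.5 CPM (1.80 ± 0.44, adjusted p = 0.0203). OPR3, the reductase that commits the product to jasmonate, went from 27.2, 22.8 and 22.8 CPM to 69.7, 116 and 51.6 CPM (1.70 ± 0.34, adjusted p = 0.00535). In these 3 genes 1 h replicate 2 was highest and 1 h replicate 3 lowest, and the same order of highest and lowest held in all 7 synthesis genes that rose.

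LOX3 was almost absent at 0 h. It held 0, 0 and 1 counts at 0 h and read 1.22, 7.68 and 0.588 CPM at 1 h, a ratio of summed levels of 249 (95% exact interval 44.3 to 9883), where the interval covers counting error only (fitted adjusted p = 0.015). OPCL1 and ACX1, which act in the peroxisomal steps, rose by log2 0.83 ± 0.17 and 0.76 ± 0.19. The cyclases moved apart. AOC1 (AT3G25760) went from 1.83, 1.24 and 1.82 CPM to 11.5, 19.0 and 5.50 CPM (2.87 ± 0.70, adjusted p = 0.0199), and AOC2 (AT3G25770) fell from 7.93, 6.08 and 7.14 CPM to 2.81, 2.60 and 2.73 CPM (-1.37 ± 0.39, adjusted p = 0.0437). AOC2 and AOC1 share 90.7% identity over 40.6% of AOC2, and how reads matching both were counted is not stated, so their separate levels are uncertain. AOC2 was also the 1 feature of 1077 called in both ecotypes whose direction was opposite, since in Col it rose by 1.62 ± 0.38, and the difference between the ecotypes did not pass (-2.99 ± 0.54, adjusted p = 0.327). JAR1 (AT2G46370), which joins jasmonate to isoleucine to give the active hormone, read 100.2, 91.9 and 89.2 CPM and 151, 191 and 136 CPM. It did not pass without the block (adjusted p = 0.059). With the block 8 of the 14 synthesis genes rose and 1 fell, beside 7.73% and 6.77% of all features in that fit. The number of synthesis genes that rose was 2 without 1 h replicate 2, 3 without 0 h replicate 2 or 3 and 4 without 0 h replicate 1. AOS, AOC1 and LOX3 did not pass without 0 h replicate 1, 2 or 3 or 1 h replicate 2. AOC2 did not pass without 0 h replicate 1, 2 or 3 or 1 h replicate 1, 2 or 3. OPCL1 did not pass without 1 h replicate 2. ACX1 did not pass without 0 h replicate 2 or 3 or 1 h replicate 1 or 2.

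JAZ proteins repress jasmonate-responsive transcription and are destroyed when the hormone is present, and their genes are in turn induced by it. Of 13 JAZ genes tested, 5 rose and none fell, beside 4.26% and 2.55% of all features, with a median log2 change of 1.52. JAZ10 (AT5G13220) went from 0.932, 1.14 and 2.19 CPM to 14.8, 47.3 and 12.2 CPM (4.12 ± 0.73, adjusted p = 0.00253) and was called in every fit that left out a library. JAZ8 (AT1G30135) was at 0.194, 0 and 0.0364 CPM at 0 h and at 1.41, 4.97 and 0.484 CPM at 1 h (4.86 ± 1.05, adjusted p = 0.00987). JAZ5 (AT1G17380) went from 0.855, 0.276 and 0.182 CPM to 2.59, 6.21 and 1.69 CPM (adjusted p = 0.03). The more abundant JAZ1 (AT1G19180) went from 58.4, 24.4 and 39.2 CPM to 110.2, 165 and 74.4 CPM (1.52 ± 0.41, adjusted p = 0.035), and JAZ3 rose by 1.11 ± 0.25. In all 5 the highest 1 h library was replicate 2. JAZ4 (AT1G48500) was lower in each 1 h library, at 3.88, 4.97 and 3.6 CPM against 10.0, 10.1 and 8.20 CPM, without passing (adjusted p = 0.171). The number of JAZ genes that rose was 1 without 0 h replicate 2, 1 without 1 h replicate 2 and 2 without 0 h replicate 3. JAZ5 and JAZ8 did not pass without 0 h replicate 2 or 3 or 1 h replicate 2. JAZ1 did not pass without 0 h replicate 2 or 3 or 1 h replicate 1 or 2. JAZ3 did not pass without 0 h replicate 1 or 2 or 1 h replicate 2.

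**Figure D2:**
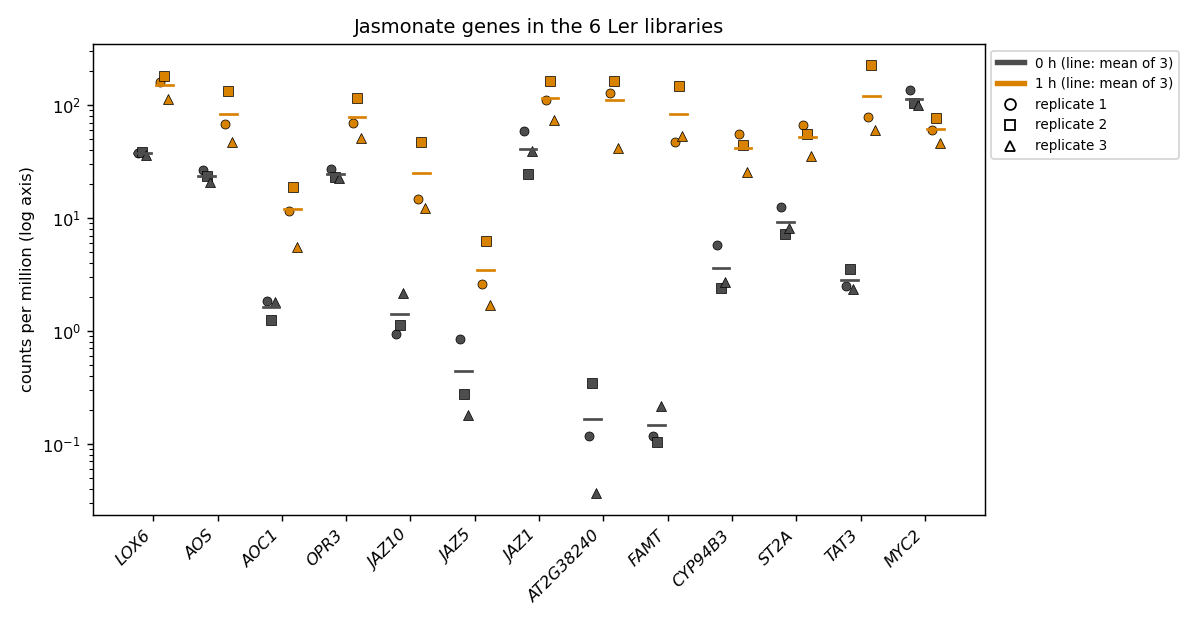
CPM (log axis) of 13 jasmonate genes in the 6 Ler libraries, grey at 0 h and orange at 1 h, with a marker shape for each replicate number and a line at the mean of 3. The points of the 2 times of each gene shown do not overlap, as in 26.0% of all features tested. MYC2 is the 1 gene shown that was lower at 1 h, and the square of replicate 2 is the highest 1 h point for most genes that rose, such as JAZ10 and TAT3.

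Genes for the breakdown and modification of jasmonate had a higher median change than the synthesis and JAZ genes. Of 10 turnover genes tested, 7 rose and none fell, beside 4.26% and 2.55% of all features (median log2 2.18). AT2G38240, annotated as a 2-oxoglutarate and iron dependent oxygenase, went from 0.117, 0.345 and 0.0364 CPM to 127, 163 and 41.8 CPM (9.30 ± 1.43, adjusted p = 0.00094). FAMT (AT3G44860), annotated for the methylation of farnesoic acid and not of jasmonate, went from 0.117, 0.104 and 0.219 CPM to 47.2, 148 and 53.6 CPM (9.10 ± 1.01, adjusted p = 8.07e-05). Both genes went from a handful of counts to more than 40 CPM in each 1 h library. AT3G44870, the neighbouring methyltransferase gene with 88.2% identity to FAMT, also ranked among the 6 largest fitted rises of called features with a mean of at least 5 CPM in the higher group and no overlap, from 0.194, 0.553 and 0.255 CPM to 27.5, 112 and 25.4 CPM, and how reads matching both genes were divided is not stated. It also overlaps ACD1 on the same strand.

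The jasmonate hydroxylase gene CYP94B3 (AT3G48520) went from 5.71, 2.38 and 2.73 CPM to 55.0, 44.7 and 25.8 CPM (3.54 ± 0.51, adjusted p = 0.000607). ST2A (AT5G07010), a sulfotransferase acting on hydroxylated jasmonate, went from 12.5, 7.29 and 8.09 CPM to 66.8, 55.1 and 35.2 CPM (2.50 ± 0.38, adjusted p = 0.00094). ST2A shares 89.6% identity with ST2B over 68.8% of its length, and how reads matching both were divided is not stated. The amidohydrolase IAR3, the oxidase CYP94C1 and the oxygenase AT5G05600 rose by 1.07, 1.48 and 1.86 on the log2 scale. JRG21 (AT3G55970) read 0.0389, 0.415 and 0.0364 CPM and 1.85, 18.3 and 0.622 CPM and did not pass (adjusted p = 0.054), though with the block it did (adjusted p = 0.00193). CYP94C1 did not pass without 0 h replicate 2 or 3 or 1 h replicate 1 or 2. IAR3 did not pass without 1 h replicate 2.

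Of 14 genes for the receptor COI1 (AT2G39940), its transcription factors and classical targets, 1 rose and 1 fell, beside 4.26% and 2.55% of all features, and 7 had an unadjusted p under 0.05, with a median log2 change of 0.01. TAT3 (AT2G24850), a tyrosine aminotransferase gene used as a jasmonate marker, went from 2.49, 3.56 and 2.37 CPM to 77.7, 224 and 60.1 CPM (5.42 ± 0.88, adjusted p = 0.00138). MYC2 (AT1G32640), the main jasmonate transcription factor, fell from 137, 105 and 100.1 CPM to 60.5, 77.6 and 46.5 CPM (-0.89 ± 0.24, adjusted p = 0.0322). COI1 read 41.9, 49.2 and 49.8 CPM and 38.0, 40.2 and 42.9 CPM and was not called. The shoot and defence targets VSP1, VSP2 and ERF1 stayed under 1.5 CPM in every Ler library, and PDF1.2 and LOX2 were listed at 0 counts in all 6. With the block, 1 gene of the 14 rose and 3 fell. MYC2 did not pass without 0 h replicate 1, 2 or 3 or 1 h replicate 1 or 3.

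MYC factors bind the G-box, spelt CACGTG. It was found on either strand in 250 bases upstream of the annotated start in 5 of 13 JAZ promoters, against 7.16% of the 20579 promoters of tested genes that could be read. The G-box lay in 2 of 14 synthesis genes, 0 of 10 turnover genes and 1 of 14 genes for receptor, factors and targets. Among the 878 features that rose 12.1% held it, and so did 7 of 18 clock genes. Among the called jasmonate genes with at least a 2-fold rise, JAZ8, JAZ3 and AOS hold it, and their upstream sequences are shown for that reason, from RefSeq's TAIR10.1 assembly of the Col genome, 5′ to 3′ on the gene's strand, with CACGTG in capitals. The Ler sequence may differ from these. The stretch of JAZ8 is chr1:10596102-10596351 on the + strand, that of JAZ3 chr3:6119457-6119706 on the + strand and that of AOS chr5:17099596-17099845 on the - strand.
JAZ8: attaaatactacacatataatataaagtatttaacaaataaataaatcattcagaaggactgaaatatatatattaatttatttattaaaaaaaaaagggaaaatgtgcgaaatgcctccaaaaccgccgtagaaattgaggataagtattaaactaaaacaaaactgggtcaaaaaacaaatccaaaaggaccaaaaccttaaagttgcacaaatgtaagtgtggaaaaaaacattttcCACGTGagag
JAZ3: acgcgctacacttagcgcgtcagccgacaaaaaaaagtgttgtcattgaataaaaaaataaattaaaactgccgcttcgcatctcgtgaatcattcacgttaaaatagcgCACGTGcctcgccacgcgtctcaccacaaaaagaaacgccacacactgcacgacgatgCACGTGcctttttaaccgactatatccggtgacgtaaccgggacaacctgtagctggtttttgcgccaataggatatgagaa
AOS: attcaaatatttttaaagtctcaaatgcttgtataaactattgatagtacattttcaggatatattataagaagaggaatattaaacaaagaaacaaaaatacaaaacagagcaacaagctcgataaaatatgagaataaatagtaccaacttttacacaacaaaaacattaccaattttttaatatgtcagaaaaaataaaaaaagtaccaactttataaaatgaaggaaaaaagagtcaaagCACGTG
JAZ2, JAZ7 and AT3G22275 also hold it and were not called. A match is a spelling in the Col reference and not a measured binding site.

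Genes induced by abscisic acid, drought and cold code for protective LEA and dehydrin proteins and for the phosphatases that damp abscisic acid signalling. Of 16 tested, 9 rose and none fell, beside 4.26% and 2.55% of all features, with a median log2 change of 2.28, which is the same with COR15A at the bound given below. Within the pairs of same-numbered libraries the list's median was 0.66, 2.31 and 1.06, below that of the jasmonate turnover genes in each pair (1.91, 2.59 and 1.35). RD29A (AT5G52310), the standard reporter of drought and cold, went from 17.4, 6.22 and 17.1 CPM to 681, 349.8 and 413 CPM (5.15 ± 0.61, adjusted p = 0.000112). ERD10 (AT1G20450), a dehydrin gene, was already high at 299.6, 154 and 155 CPM and reached 1679, 1009 and 1023 CPM (2.61 ± 0.33, adjusted p = 0.000188). KIN1 (AT5G15960), a small cold-induced protein gene, went from 3.81, 1.59 and 1.42 CPM to 66.1, 40.6 and 26.1 CPM (4.29 ± 0.84, adjusted p = 0.00522). For these 3 genes every 1 h library lay above every 0 h library, and 1 h replicate 1 was highest. The nearest relative KIN2 rose by 2.11 ± 0.56, and it shares 87.1% identity with KIN1 over 78.0% of its length, so the split of reads between them is uncertain.

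A second group within the list was highest in 1 h replicate 2 instead. LEA4-5 (AT5G06760) went from 0.738, 0.449 and 0.146 CPM to 11.7, 43.5 and 18.6 CPM (5.79 ± 1.3, adjusted p = 0.0124). RD29B (AT5G52300), the neighbour of RD29A on chromosome 5, went from 1.09, 0.276 and 0.510 CPM to 1.48, 5.63 and 3.11 CPM (adjusted p = 0.0348). The phosphatase gene HAI1 (AT5G59220) went from 4.78, 2.35 and 3.42 CPM to 7.88, 34.6 and 14.7 CPM (2.44 ± 0.55, adjusted p = 0.0133). COR15A, a chloroplast cold-protection gene, held 0 counts in all 3 libraries at 0 h and read 1.55, 2.21 and 0.450 CPM at 1 h, at least 12.8-fold higher against a floor of 3 counts in each 0 h library (adjusted p = 0.0405). NCED3 (AT3G14440), the rate-limiting gene of abscisic acid synthesis, read 4.47, 1.83 and 2.88 CPM and 3.18, 14.3 and 5.01 CPM and was not called, with 1 h replicate 2 apart from the other two. The cold factors CBF2 and CBF3 stayed under 1 CPM in all 6 libraries. The number of rises in this list was 3 without 0 h replicate 2 or 3, 5 without 1 h replicate 2 and 6 without 1 h replicate 1. COR47 did not pass without 0 h replicate 2 or 3 or 1 h replicate 1. COR15A and KIN2 did not pass without 0 h replicate 1, 2 or 3 or 1 h replicate 1 or 2. LEA4-5 did not pass without 0 h replicate 2 or 3. RD29B did not pass without 0 h replicate 2 or 3 or 1 h replicate 2 or 3. HAI1 did not pass without 0 h replicate 2 or 3 or 1 h replicate 2.

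CBF-type factors bind the core CCGAC, and abscisic acid response factors bind the core ACGTG, which is also held within CACGTG. Within the same 250 bases, on either strand, CCGAC was found in 5 of the 16 genes of the list against 12.9% of the 20579 promoters, and ACGTG in 8 of 16 against 23.9%. Among the 878 features that rose the shares were 17.2% and 34.3%. The neighbours RD29A and RD29B and the gene LEA4-5, picked after their matches were seen, are shown because they hold the most matches of either core among the called genes of the list, with CCGAC and ACGTG in capitals on whichever strand they lie. The stretches are chr5:21240467-21240716 on the + strand for RD29A, chr5:21236771-21237020 on the + strand for RD29B and chr5:2090431-2090680 on the - strand for LEA4-5.
RD29A: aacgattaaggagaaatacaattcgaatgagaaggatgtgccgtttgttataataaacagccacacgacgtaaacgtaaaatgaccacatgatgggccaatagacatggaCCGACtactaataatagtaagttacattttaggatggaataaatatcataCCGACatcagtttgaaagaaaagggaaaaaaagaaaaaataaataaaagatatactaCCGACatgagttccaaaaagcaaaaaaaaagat
RD29B: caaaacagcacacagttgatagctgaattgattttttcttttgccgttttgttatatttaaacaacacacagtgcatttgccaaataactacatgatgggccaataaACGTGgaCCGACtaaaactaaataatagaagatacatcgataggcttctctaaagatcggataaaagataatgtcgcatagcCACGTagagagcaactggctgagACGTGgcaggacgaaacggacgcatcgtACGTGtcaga
LEA4-5: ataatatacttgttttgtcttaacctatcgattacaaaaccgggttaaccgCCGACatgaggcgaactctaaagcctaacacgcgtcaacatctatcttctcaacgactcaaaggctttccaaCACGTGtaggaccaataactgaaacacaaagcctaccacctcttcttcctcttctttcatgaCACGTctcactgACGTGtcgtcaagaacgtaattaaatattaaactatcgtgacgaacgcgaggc
Matches were counted on both strands, so 1 CACGTG, which reads alike on each, counts as 2 matches of ACGTG. RD29A holds 3 matches of CCGAC and 0 of ACGTG, and RD29B and LEA4-5 each hold 1 of CCGAC and 4 of ACGTG. In LEA4-5, 2 of these 4 come from its 1 CACGTG, and RD29B holds no CACGTG. The matches did not divide the called genes by the replicate that was highest. KIN1 and KIN2, highest in 1 h replicate 1 like RD29A, hold ACGTG 1 time each and no CCGAC. COR15A, highest in replicate 2, holds 2 matches of each core, with those of ACGTG in 1 CACGTG. ERD10 and COR47, highest in replicate 1, and HAI1, highest in replicate 2, hold neither.

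Touch and early stress genes respond within minutes, in part through calcium. Of 24 tested, 8 rose and 1 fell, beside 4.26% and 2.55% of all features (median 0.67). RRTF1 (AT4G34410), an ERF factor of redox stress, went from 0.0777, 0.0345 and 0.146 CPM to 7.58, 8.96 and 2.25 CPM (6.12 ± 0.80, adjusted p = 0.000293). TCH3 (AT2G41100), a calmodulin-like gene named for its induction by touch, went from 20.6, 18.0 and 7.47 CPM to 231, 262 and 89.1 CPM (3.66 ± 0.73, adjusted p = 0.00564). The calcium sensor gene CML37 (AT5G42380) went from 0.350, 0.0691 and 0.291 CPM to 4.44, 3.61 and 1.31 CPM (adjusted p = 0.00913). In each of these 3 genes the lowest 1 h library, replicate 3, still lay above every 0 h library. WRKY46, CML38, CML39, WRKY40 and ZAT11 also rose, by 3.13, 2.98, 2.83, 2.49 and 1.55 on the log2 scale. WRKY60 (AT2G25000), a relative of WRKY40, fell from 13.6, 9.22 and 13.3 CPM to 2.37, 1.2 and 1.49 CPM (-2.83 ± 0.73, adjusted p = 0.0272). TCH2 and TCH4, also named for touch, were not called (log2 -0.44 and -0.01). With the block 10 genes of the list rose and 2 fell. The number of rises was 3 without 0 h replicate 2 or 3 and 4 without 1 h replicate 2. CML37 did not pass without 0 h replicate 2. WRKY46 did not pass without 0 h replicate 1 or 3 or 1 h replicate 2. CML38 and WRKY40 did not pass without 0 h replicate 2 or 3 or 1 h replicate 2. CML39 did not pass without 0 h replicate 1, 2 or 3 or 1 h replicate 2. ZAT11 did not pass without 0 h replicate 2 or 3 or 1 h replicate 1. WRKY60 did not pass without 0 h replicate 1 or 3 or 1 h replicate 1, 2 or 3.

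MYB15 (AT3G23250), a transcription factor of stress and lignin genes, was among the 6 largest rises, and went from 0.194, 0 and 0.0364 CPM to 18.1, 22.0 and 6.64 CPM (7.64 ± 1.12, adjusted p = 0.000666). Of 11 heat shock genes edgeR called none, DESeq2 called 0, and 1 had an unadjusted p under 0.05. The chaperone gene HSP90.1 (AT5G52640) read 49.1, 24.4 and 16.5 CPM at 0 h and 37.3, 17.1 and 92.4 CPM at 1 h, highest in 1 h replicate 3. Of 14 hypoxia genes 1 rose and none fell, beside 4.26% and 2.55% of all features. It was SRO5 (AT5G62520), which modulates oxidative stress under salt and rose from 3.26, 4.28 and 5.72 CPM to 41.9, 57.5 and 31.5 CPM (3.3 ± 0.47, adjusted p = 0.000565). The fermentation gene ADH1 (AT1G77120) read 1.75, 7.08 and 1.79 CPM and 38.3, 20.2 and 11.5 CPM and did not pass (adjusted p = 0.0787), and with the block 2 of the 14 rose and 2 fell. Of 10 salicylate genes, ROXY19 and ICS1 (AT1G74710) rose, by 2.29 ± 0.52 and 0.93 ± 0.23, beside rises in 4.26% of all features. ROXY19 is a glutaredoxin gene and ICS1 makes the salicylate precursor, at 5.52, 5.80 and 6.92 CPM before and 16.2, 7.68 and 11.0 CPM after. ROXY19 did not pass without 0 h replicate 2 or 3 or 1 h replicate 1. ICS1 did not pass without 0 h replicate 1 or 2 or 1 h replicate 1.

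Gibberellin promotes root elongation, and its level is set by GA20OX and GA3OX enzymes that make it and GA2OX enzymes that inactivate it. Of 16 gibberellin and brassinosteroid genes, 1 rose and 6 fell, beside 4.26% and 2.55% of all features (median -0.11). With the block 3 rose and 7 fell, beside 7.73% and 6.77%. GA2OX6 (AT1G02400) went from 15.3, 12.6 and 11.2 CPM to 122, 99.7 and 59.2 CPM (2.85 ± 0.39, adjusted p = 0.000406). GA20OX2 (AT5G51810) fell from 7.07, 5.22 and 5.98 CPM to 1.89, 0.504 and 1.52 CPM (-2.21 ± 0.42, adjusted p = 0.00383). GA3OX1 (AT1G15550) fell from 33.3, 28.5 and 16.5 CPM to 12.8, 8.23 and 11.0 CPM (-1.29 ± 0.32, adjusted p = 0.0235). GA20OX1 also fell (-1.22 ± 0.34, adjusted p = 0.0423). In these 4 genes the libraries of the 2 times did not overlap, as in 26.0% of all features tested. GA20OX5, a further 20-oxidase gene that was on no list, also rose. It held 0 counts in each 0 h library and read 6.29, 6.36 and 2.94 CPM at 1 h, at least 47.3-fold higher against 3 counts in each 0 h library (adjusted p = 0.000523).

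The brassinosteroid genes that fell act in opposite directions on the hormone. BR6OX1 and ROT3 belong to its synthesis and fell, with log2 changes of -0.85 ± 0.17 and -0.59 ± 0.17. BAS1 (AT2G26710), which inactivates it, fell from 21.3, 22.6 and 18.8 CPM to 11.3, 12.5 and 12.4 CPM (-0.79 ± 0.11, adjusted p = 0.000508). The count of genes that fell was 3 without 0 h replicate 1 and 3 without 1 h replicate 2 or 3. GA3OX1 did not pass without 0 h replicate 1 or 2 or 1 h replicate 2 or 3. GA20OX1 did not pass without 0 h replicate 1 or 3 or 1 h replicate 1, 2 or 3. ROT3 did not pass without 0 h replicate 1, 2 or 3 or 1 h replicate 2 or 3.

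Type-A response regulators are quickly induced by cytokinin and damp its signalling. Of 10 tested, none rose and 3 fell, beside 4.26% and 2.55% of all features (median -0.86). ARR3 (AT1G59940) fell from 56.1, 50.9 and 53.1 CPM to 10.5, 15.3 and 11.0 CPM (-2.12 ± 0.21, adjusted p = 3.89e-05). ARR4 (AT1G10470) fell from 152, 114 and 117 CPM to 53.6, 71.7 and 72.5 CPM (-0.95 ± 0.14, adjusted p = 0.000666). ARR8 (AT2G41310) fell from 153, 128 and 138 CPM to 64.0, 81.2 and 79.0 CPM (-0.90 ± 0.13, adjusted p = 0.000614). In each of these 3 the highest 1 h library was far below the lowest 0 h library, and the same 3 genes were called in every fit that left out a library. The summed level of the 10 genes was 419.5 to 432.7 CPM at 0 h and 166.2 to 268.7 CPM at 1 h. ARR5, ARR6 and ARR9 were lower at 1 h without passing (log2 -0.78, -0.49 and -0.42), and ARR7 was slightly higher (0.45, adjusted p = 0.753). Of the 7 genes not called, 6 had negative log2 changes, the lowest -2.38. In Col 7 of the 10 fell, beside 5.73% of all features there, and for ARR6 the 2 ecotypes differed by 1.57 ± 0.41, which did not pass (adjusted p = 0.787).

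Auxin acts by the removal of Aux/IAA repressors, whose genes it induces. Of 31 auxin genes, 5 rose and none fell, beside 4.26% and 2.55% of all features (median 0.44). With the block 16 rose and none fell, against 7.73% and 6.77% of all features in that fit. IAA2 (AT3G23030), an Aux/IAA repressor gene that auxin induces, went from 34.9, 34.1 and 38.0 CPM to 95, 102 and 60.5 CPM (1.27 ± 0.32, adjusted p = 0.0264). LBD16 (AT2G42430), a factor of lateral root initiation, went from 6.02, 6.91 and 4.55 CPM to 15.9, 14.3 and 6.92 CPM (1.08 ± 0.31, adjusted p = 0.0474). IAA11, IAA14 and IAA13 rose by 0.93 ± 0.18, 0.64 ± 0.17 and 0.59 ± 0.15. Of these 5 genes IAA11 alone was called in every fit that left out a library. The transporter genes PIN2 (AT5G57090) and PIN3 read higher in each 1 h library and passed only with the block, PIN2 going from 217, 205 and 202 CPM to 279, 271 and 273 CPM (adjusted p = 0.0724, and 0.0393 with the block). Between 1 and 2 auxin genes rose when 0 h replicate 1, 2 or 3 or 1 h replicate 1 or 2 was left out. IAA2 and LBD16 did not pass without 0 h replicate 1, 2 or 3 or 1 h replicate 1 or 2. IAA14 did not pass without 0 h replicate 2 or 3 or 1 h replicate 1 or 3. IAA13 did not pass without 0 h replicate 1 or 3 or 1 h replicate 1 or 2.

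ACS enzymes make the precursor of ethylene. Of 15 ethylene genes, 1 rose and 2 fell, beside 4.26% and 2.55% of all features. With the block 2 rose and 2 fell, beside 7.73% and 6.77%. ACS8 (AT4G37770) went from 0.816, 0.345 and 0.802 CPM to 4.55, 5.08 and 2.21 CPM (2.59 ± 0.55, adjusted p = 0.0085). ACS2 (AT1G01480) fell from 8.90, 8.78 and 9.25 CPM to 3.33, 2.56 and 3.18 CPM (-1.57 ± 0.36, adjusted p = 0.0134), and ACS5 (AT5G65800) fell from 10.6, 13 and 12.8 CPM to 3.48, 5.24 and 5.81 CPM (-1.32 ± 0.28, adjusted p = 0.00825). The receptors ERS1, ERS2 and ETR2 and the F-box genes EBF1 and EBF2 were not called. ACS8 did not pass without 0 h replicate 2. ACS2 did not pass without 1 h replicate 2.

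**Figure D3:**
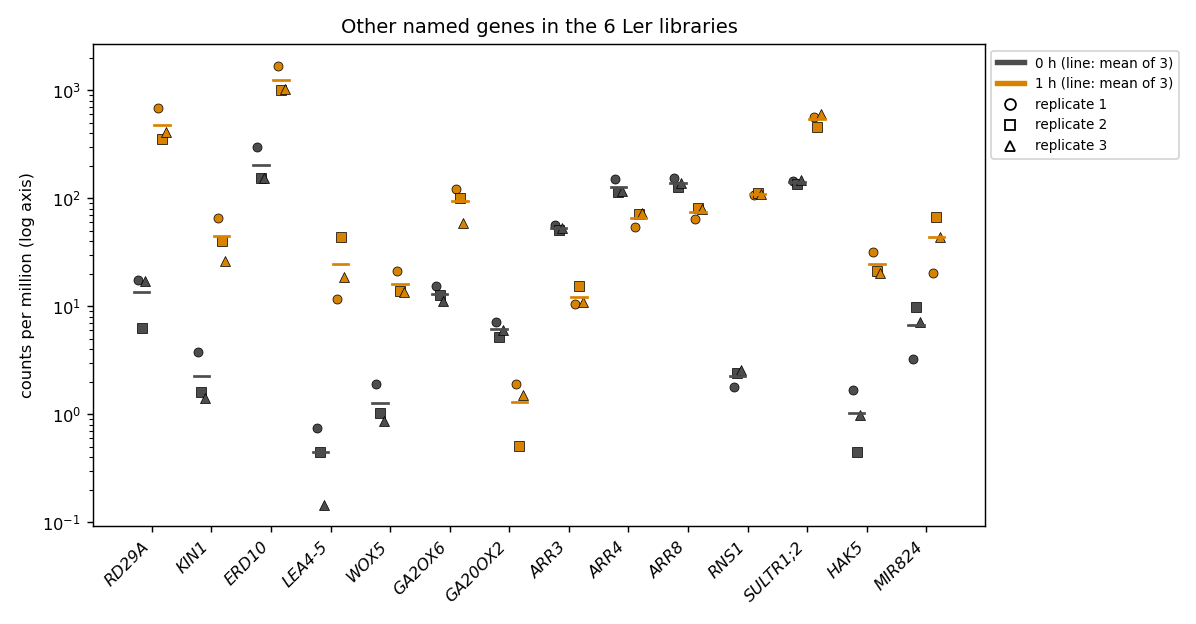
CPM (log axis) of 14 further named genes in the 6 Ler libraries, grey at 0 h and orange at 1 h, with a marker shape for each replicate number and a line at the mean of 3. The points of the 2 times do not overlap for any gene shown, as in 26.0% of all features tested. GA20OX2, ARR3, ARR4 and ARR8 are lower at 1 h and the other 10 are higher, with RNS1 at 106, 112 and 109 CPM the tightest of the large rises.

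In the list of the systemic phosphate response 3 of 31 phosphate starvation genes were called, beside 6.82% of all features in either direction. Of these, 1 rose and 2 fell, beside 4.26% and 2.55% of all features, and the median of the list was -0.07. RNS1 (AT2G02990), a ribonuclease gene that releases phosphate from RNA and also responds to wounding, went from 1.79, 2.42 and 2.59 CPM to 106, 112 and 109 CPM (5.59 ± 0.36, adjusted p = 6.82e-07). Widely used markers were not called. IPS1 (AT3G09922), a noncoding RNA that sequesters miR399, read 1.36, 1.35 and 3.13 CPM and 1.96, 1.98 and 3.28 CPM. SPX1 (AT5G20150), a phosphate sensor gene, read 31.6, 21.8 and 45.5 CPM and 37.2, 16.1 and 65.9 CPM. The transporter gene PHT1;4 (AT2G38940) read 55.7, 41.9 and 61.1 CPM and 108, 49.2 and 118 CPM (adjusted p = 0.157). SPX1 and PHT1;4 were lowest in replicate 2 at both times. With the block PHT1;4 rose (adjusted p = 0.0272), and IPS1 and SPX1 did not pass.

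The called falls in the list were MGD2 (AT5G20410) and PHO1 (AT3G23430). MGD2, a galactolipid synthase gene that low phosphate induces, fell from 6.10, 8.33 and 7.69 CPM to 2.96, 2.13 and 3.15 CPM (-1.42 ± 0.22, adjusted p = 0.00101). PHO1, which loads phosphate into the xylem, fell from 345, 319.9 and 277 CPM to 175, 122 and 181 CPM (-0.98 ± 0.27, adjusted p = 0.0358). With the block 2 genes of the list rose and 5 fell, beside 7.73% and 6.77% of all features. PHO1 did not pass without 0 h replicate 1, 2 or 3 or 1 h replicate 1 or 2. PHO1 is expressed in the stele of mature root. Among marker genes of other tissues, those of endodermis and shoot photosynthesis read lower as well, and root hair genes as a list did not. The photosynthesis genes were set as a shoot list and do not mark the stele. The 15 root hair genes had a median log2 change of 0.003. Their summed level was 929.6 to 1168.6 CPM at 0 h and 809.9 to 1191.6 CPM at 1 h. All 6 endodermis genes had negative log2 changes, with none called by edgeR or DESeq2 and 4 at an unadjusted p under 0.05 (median -0.69), and their summed level was 327.8 to 391.1 CPM at 0 h and 187.9 to 298.9 CPM at 1 h. With the block 3 of the 6 fell. All 6 tested shoot photosynthesis genes were also lower, with none called by either tool and 1 at an unadjusted p under 0.05. Their sums were 55.8 to 117.1 CPM and 28.1 to 65.2 CPM, and 2 fell with the block. The part of tissue makeup in the fall of PHO1 was not tested.

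The P1BS element, spelt GNATATNC, is the site of PHR1. It lay within 250 bases upstream in 8 of the 31 phosphate starvation genes against 5.49% of the 20579 promoters, and 1 of those 8, MGD2, was called. Among all 878 features that rose 5.47% held it, and among the 526 that fell 7.41% did.

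In the local sensing pathway 1 of 11 genes rose and none fell, beside 4.26% and 2.55% of all features. CLE14 (AT1G63245), a peptide gene that acts on the meristem in low phosphate, went from 1.40, 0.898 and 0.583 CPM to 8.84, 3.07 and 3.91 CPM (2.46 ± 0.56, adjusted p = 0.0134). STOP1 (AT1G34370) read 142, 112 and 113 CPM and 211, 157 and 149 CPM and its target ALMT1 (AT1G08430), a malate channel gene, 109.9, 41.9 and 75.9 CPM and 85.6, 31.2 and 57.0 CPM. Neither passed. With the block 3 genes of the list rose, beside 7.73% of all features in that fit, STOP1 among them (adjusted p = 0.00162). LPR1 and PDR2 were not called (log2 0.28 and -0.04). CLE14 did not pass without 0 h replicate 2 or 3 or 1 h replicate 1.

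Lists for 3 other mineral nutrients were tested. Sulfur assimilation had 3 rises and no fall in 11 genes (median 1.05), beside 4.26% and 2.55% of all features. SULTR1;2 (AT1G78000), the main sulfate uptake transporter of roots, went from 145, 136 and 146 CPM to 571, 453 and 596 CPM (1.92 ± 0.26, adjusted p = 0.000338). APR2 (AT1G62180), which reduces activated sulfate, went from 31.7, 37.2 and 41.4 CPM to 71.8, 59.7 and 96.2 CPM (adjusted p = 0.0201), and AT1G04770 went from 14.6, 7.81 and 12.8 CPM to 37.6, 17.5 and 43.0 CPM (adjusted p = 0.0129). Unlike the jasmonate genes, these 3 were highest in 1 h replicate 3 and lowest in replicate 2. With the block 5 of the 11 rose, beside 7.73% of all features in that fit. Of the 8 members not called, 6 had positive log2 changes, SDI1 and LSU2 among them (0.02 and 0.41), and 2 had negative ones. The number of rises was 1 without 0 h replicate 2 and 1 without 1 h replicate 3. APR2 did not pass without 0 h replicate 1 or 2 or 1 h replicate 3. AT1G04770 did not pass without 0 h replicate 2 or 1 h replicate 3.

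Of 16 nitrate genes 1 rose and 1 fell, and of 26 iron genes 1 fell, shares that read against 6.82% of all features called. NRT3.1 (AT5G50200), the partner protein of high-affinity nitrate transporters, went from 23.1, 29.3 and 25.6 CPM to 64.2, 55.5 and 66.2 CPM (1.25 ± 0.24, adjusted p = 0.00451). AT3G25790, a myb-like factor gene, fell from 56.8, 49.6 and 44.0 CPM to 30.6, 18.7 and 22.0 CPM (-1.08 ± 0.26, adjusted p = 0.0191). The nitrate-inducible genes NIA1, NIR1 and NRT2.1 were not called, and with the block 1 gene rose and 4 fell. On the iron list OPT3 (AT4G16370), a phloem iron transporter gene, fell from 13.4, 16.5 and 11.3 CPM to 5.62, 7.68 and 6.57 CPM (-1.05 ± 0.21, adjusted p = 0.00649). The uptake gene IRT1 (AT4G19690) read 18.8, 49.4 and 7.61 CPM and 18.1, 18.2 and 13.4 CPM without passing, and with the block 2 iron genes rose and 3 fell. AT3G25790 did not pass without 0 h replicate 1 or 2 or 1 h replicate 2 or 3.

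The 4 potassium genes that follow were on no list and were picked after their values were seen, so they do not stand for potassium genes as a group. HAK5 (AT4G13420), the high-affinity uptake transporter gene that potassium shortage induces, went from 1.67, 0.449 and 0.984 CPM to 31.9, 21.4 and 20.3 CPM (4.58 ± 0.69, adjusted p = 0.000782). CIPK9 and KUP9 rose by 3.31 ± 0.28 and 1.88 ± 0.20. SKOR (AT3G02850), which releases potassium into the xylem, fell from 34.1, 56.8 and 41.0 CPM to 10.6, 11.1 and 12.7 CPM (-1.94 ± 0.44, adjusted p = 0.0134). SKOR, like PHO1, marks the stele, for which no marker list was made. The sums of the endodermis, shoot photosynthesis and root hair genes given beside PHO1 apply to SKOR as well, with their part not tested. The labels name KH2PO4 as the phosphate source, and whether its potassium was replaced in the medium without phosphate is not given in the sources used here. SKOR did not pass without 0 h replicate 2 or 1 h replicate 1 or 2.

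Sugar starvation genes gave 4 rises and no fall in 18, beside 4.26% and 2.55% of all features. ASN1 (AT3G47340), which makes asparagine and is switched on when sugar is short, was among the 6 largest rises and went from 0.0389, 0.207 and 0.0364 CPM to 58.6, 131 and 32.5 CPM (9.50 ± 1.96, adjusted p = 0.0073). DIN2 (AT3G60140), a dark-induced glycosyl hydrolase gene, went from 0.0777, 0.104 and 0.109 CPM to 3.11, 1.67 and 2.21 CPM (4.52 ± 0.74, adjusted p = 0.00158). DIN9 and GDH2 rose by 1.25 ± 0.19 and 0.93 ± 0.19. The trehalose phosphate synthase-like genes TPS8, TPS9 and TPS11 and the dark-induced gene DIN10 were not called (log2 -0.25, -0.09, 0.71 and -0.22). With the block 6 rose and 3 fell, beside 7.73% and 6.77% of all features in that fit. GDH2 did not pass without 0 h replicate 2.

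WOX5 (AT3G11260), the factor that keeps the stem cells around the quiescent centre undifferentiated, rose from 1.90, 1.04 and 0.874 CPM to 21.0, 13.9 and 13.6 CPM (3.67 ± 0.39, adjusted p = 6.71e-05). Every 1 h library was above 13 CPM and every 0 h library below 2 CPM. Of the other markers of the region, PLT1, PLT2, SCR and SHR were not called (log2 0.15, 0.34, 0.05 and 0.29), and JKD (AT5G03150) fell slightly, from 38.7, 39.7 and 37.5 CPM to 27.8, 26.1 and 28.0 CPM (adjusted p = 0.00267). Of 16 mitosis genes edgeR called none, DESeq2 called 0, and 1 had an unadjusted p under 0.05. For 15 of them the log2 change was negative, the lowest -0.43, and their summed level was 367.4 to 442.8 CPM at 0 h and 331.1 to 377.7 CPM at 1 h. Of 15 root hair genes 1 rose and none fell, beside 4.26% and 2.55% of all features. It was RSL4 (AT1G27740), the factor that sets hair length, which went from 22.0, 14.7 and 15.7 CPM to 34.4, 29.8 and 27.1 CPM (0.80 ± 0.16, adjusted p = 0.00609). With the block 2 of the list rose and 1 fell.

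Of 18 clock genes 1 rose and none fell, beside 4.26% and 2.55% of all features. It was PRR9 (AT2G46790), a day-phase repressor that light also induces, which went from 5.32, 6.53 and 3.57 CPM to 11.7, 20.9 and 13.3 CPM (1.57 ± 0.25, adjusted p = 0.00123). With the block 3 rose, beside 7.73% of all features. PRR9 shares 99.7% identity with AT2G46670 over 35.6% of its length, and how reads matching both were counted is not stated. Of 7 flavonoid genes 2 rose, beside 4.26% of all features. These were the regulators MYB12 (AT2G47460), from 11.2, 11.9 and 10.1 CPM to 44.6, 65.3 and 41.1 CPM (2.18 ± 0.26, adjusted p = 0.000118), and HY5, by 0.69 ± 0.18. The enzyme genes they control, CHS, F3H and FLS1, were not called (log2 -0.07, 0.11 and 0.07). Of 14 indole glucosinolate genes MYB122 (AT1G74080) rose and MYB34 (AT5G60890) fell, beside 4.26% and 2.55% of all features. These related regulators read 3.42, 3.59 and 3.68 CPM and 5.81, 5.47 and 7.09 CPM (adjusted p = 0.044), and 103, 73.8 and 78.7 CPM and 45.5, 33.4 and 44.8 CPM (adjusted p = 0.00336). With the block 3 of the 14 rose and 1 fell. HY5 did not pass without 0 h replicate 2 or 3 or 1 h replicate 1 or 2. MYB122 did not pass without 0 h replicate 1, 2 or 3 or 1 h replicate 1, 2 or 3.

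The largest falls, taken like the largest rises among called features with a mean of at least 5 CPM in the higher group and no overlap, were smaller than the rises. WRKY60 was one of the 6. AT1G67910, an uncharacterized protein gene, fell from 6.57, 4.28 and 4.92 CPM to 0.518, 0.504 and 0.622 CPM (-3.25 ± 0.39, adjusted p = 0.000152). XTH33 (AT1G10550), a gene for an enzyme that remodels cell wall xyloglucan, fell from 5.05, 12 and 6.05 CPM to 0.592, 1.86 and 1.35 CPM (-2.60 ± 0.47, adjusted p = 0.00305). CIPK16 (AT2G25090), a protein kinase gene, fell from 16.6, 15.3 and 8.34 CPM to 2.77, 1.44 and 2.87 CPM (adjusted p = 0.00229). The remaining 2 are AT1G23160, annotated to the auxin-responsive GH3 family, and AT5G67430, annotated as an acyl-CoA N-acyltransferase, with log2 changes of -2.70 ± 0.63 and -2.52 ± 0.49. AT1G23160 did not pass without 0 h replicate 2 or 3 or 1 h replicate 1 or 3.

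The study was aimed at noncoding RNA. Of 281 noncoding features tested, 4 rose and 2 fell, which is 2.14% beside 6.82% of all features, and 11 were called with the block. MIR824 (AT4G24415), the precursor gene of a microRNA that targets AGL16 (AT3G57230), went from 3.22, 9.78 and 7.14 CPM to 20.5, 67.7 and 43.4 CPM (2.70 ± 0.50, adjusted p = 0.00354). Each 1 h library was above each 0 h library, and replicate 2 was highest at both times. The libraries were selected for poly(A) RNA, so the counts are of the precursor transcript and not of the mature microRNA. Its mature strands are shown with bases 2 to 8 in capitals, which mark position only. They were read from the TAIR10.1 genome at RefSeq's positions on the + strand, chr4:12625128-12625148 for the 5p strand and chr4:12625721-12625741 for the 3p strand.
miR824-5p: uAGACCAUuugugagaaggga
miR824-3p: cCUUCUCAucgauggucuaga
AGL16, a MADS-box factor gene, read 53.5, 46.5 and 44.6 CPM and 42.0, 31.3 and 35.6 CPM, lower in each 1 h library, and did not pass without the block (adjusted p = 0.318, and 0.0137 with it).

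The other noncoding features chosen by the same rule carry no role in the RefSeq annotation. AT1G55525 held 0, 2 and 0 counts at 0 h and read 1.89, 1.86 and 0.415 CPM at 1 h, a ratio of summed levels of 55.8 (95% exact interval 15.1 to 466) for counting error only (fitted adjusted p = 0.00994). AT3G52748 went from 10.5, 3.32 and 3.72 CPM to 34.6, 15.2 and 15 CPM (adjusted p = 0.049). It overlaps AT3G52742 on the opposite strand, and whether the counting used strand is not stated. ASN1 and RRTF1 each overlap a short annotated gene on the opposite strand as well. The same limit holds for MYC2, WRKY40, SRO5, SKOR, OCT6, APR2, AT1G04770, ROT3, IAA11 and IAA13, which also overlap a gene on the opposite strand. AT1G55525 did not pass without 0 h replicate 3. AT3G52748 did not pass without 0 h replicate 2 or 3 or 1 h replicate 1 or 2.

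Most changes in Ler had the same sign in Col. Of the 1404 features called in Ler, 1384 had the same sign in Col. There were 1077 called in both, 76.7% of the Ler calls and 47.2% of the 2282 Col calls (5.35% of all features up and 5.73% down in Col). The difference between the ecotypes' changes passed for 1 of 20599 features (0.00485%), with 561 at an unadjusted p under 0.05. It was CPK27 (AT4G04700), which codes for a kinase switched on by calcium. In Ler it read 11.2, 11.2 and 10.5 CPM at 0 h and 16.4, 17.1 and 13.6 CPM at 1 h (0.52 ± 0.15, adjusted p = 0.0444), and the 3 Col libraries averaged 7.20 ± 0.520 CPM (SD) before and 38.3 ± 5.44 CPM after, a log2 change of 2.41 ± 0.15. The Ler change minus the Col change came to -1.89 ± 0.21 on the log2 scale (adjusted p = 0.00277). The rise of CPK27 within Ler did not pass without 0 h replicate 1, 2 or 3 or 1 h replicate 1 or 2.

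**Figure D4:**
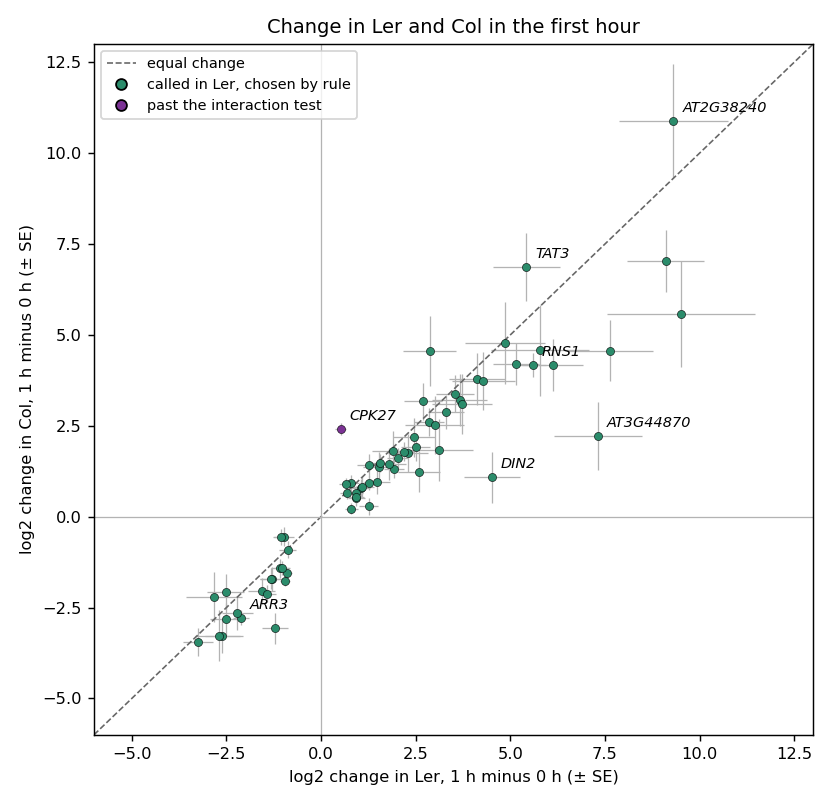
Log2 change from 0 h to 1 h in Ler (horizontal axis) and Col (vertical axis), each ± SE, of 68 genes chosen by rule that were called in Ler and had more than 3 counts at 0 h. The dashed line marks equal change; most points lie near it, CPK27 lies above it with 0.52 in Ler and 2.41 in Col, and AT3G44870 and DIN2 lie below it.

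With the block 6 features passed the test of the difference. One of them, picked after its value was seen, was OCT6 (AT1G16370), an organic cation transporter gene. It went from 4.58, 5.01 and 5.61 CPM to 81.0, 129 and 96.5 CPM in Ler (4.33 ± 0.44, adjusted p = 5.05e-05) and rose by 1.39 ± 0.38 in Col, and the difference was 2.94 ± 0.56 (adjusted p = 0.327, and 0.0468 with the block). AT3G44870 and DIN2 rose in Ler and were not called in Col (log2 2.21, adjusted p = 0.153, and 1.08, adjusted p = 0.367), and their differences did not pass (adjusted p = 1 for both). NRT3.1 and RSL4 were called in Ler only as well, and their differences from Col did not pass either, with adjusted p-values of 1.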

How the data were processed

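The authors deposited raw read counts per gene for each library. Per the labels' protocols the libraries were poly(A)-selected, stranded and paired-end, and TopHat2, Bowtie2 and the TAIR10 build are named in the submitters' processing notes. The counting tool, the annotation and the strand setting are not given in the sources used here. Of 32852 features listed in all libraries, 32383 matched RefSeq's TAIR10.1 annotation, which gave names and upstream sequence. Features passing edgeR's filterByExpr (minimum count 10, total 15) were tested with edgeR 4.0.16 in R 4.3.3 by the quasi-likelihood test with TMM, 1 mean per group over 18 libraries and Benjamini-Hochberg adjustment, and 12253 features were below the filter. SE is the log2 change divided by the square root of F. CPM used TMM-scaled library sizes. The p-values measure the spread between replicates within groups, 3 per group and called biological in the series' design text, shared over all 18 libraries. Without the block this spread also holds the deviations that go with the replicate number. Same-numbered libraries' deviations from the group means correlated at 0.56, 0.41 and 0.24 over the tested features, so the numbers pair the libraries. Features named were the 6 largest rises and 6 largest falls (mean of at least 5 CPM in the higher group, no overlap), up to 4 called members of each of 24 pathway lists and 3 noncoding features by size of change (at least 1 CPM), and features past the test of the ecotype difference. Members and lists were chosen with earlier results of these data known. Exact intervals and the floor of 3 counts cover counting error only. The scripts were tested on simulated counts. Alternatives were RLE scaling, DESeq2 1.42.0, other filters and library sets, the replicate block and leaving out each library. Of 101 named genes searched, none had a copy at 95% identity over 50% of its length, and 14 overlap another annotated gene.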

Additional observations from a re-analysis of the deposited data

Results flagged for a closer look

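CPK27 was picked out because its change differed between the ecotypes when that difference was tested. In edgeR's quasi-likelihood fit the Ler change minus the Col change came to -1.89 on the log2 scale (adjusted p = 0.00277), with each of the 3 Ler libraries at 1 h below the mean of the Col libraries at 1 h. Over 14 alternative fits the difference ranged from -2.0 to -1.79 and its adjusted p from 0.00174 to 0.0141. No cause was tested.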

How the results depend on the processing

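The count of called features moved most with the replicate block. It was 2987 (1592 up, 1395 down) with the block and 3968 (2108 up, 1860 down) with the block in only the 6 libraries compared. DESeq2 called 827 features down. Asking for at least a 2-fold change left 837 features, 239 of them down. The count past the test of the ecotype difference was 6 with the block. Leaving out 1 library gave 755 to 1265 calls in either direction, 498 to 850 up and 218 to 415 down, and 1 to 2 features for the ecotype difference. The causes of these shifts were not tested. Of 101 genes refitted, all of them called except AGL16, none changed direction in any alternative that gave a value. DESeq2 ended no call among them, the block ended none and added AGL16, the block in the 6 libraries ended 3 (CML39, WRKY40 and RD29B), RLE scaling ended 2, a minimum mean of 1 CPM 2, no filter 4, the 9 Ler libraries 9 and the 6 compared libraries 15, and leaving out a library ended between 13 (1 h replicate 3) and 42 (0 h replicate 2). With 1 library left out, the shared estimate of spread rests more on the other groups. No chloroplast or mitochondrial features are in the common set, so leaving them out changed nothing. At these depths genes with a few counts at 0 h have wide intervals, as given for LOX3 and AT1G55525.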
